A study of Mus musculus with 6 samples.

Results

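The numbered zinc finger protein genes are the mouse genes whose symbol is Zfp followed by digits alone. Of 302 such genes that the array reads with at least 1 probe set annotated to no other gene, 173 are described here. They were chosen by their mean signal, which had to exceed 200 over the 6 clones. Each gene was read through 1 probe set, the one with the highest mean on the scale log2(signal + 16). Zfp42, Zfp352 and Zfp281 were not counted, and Zfp560, a member that had been picked for its higher signal in one group, is shown with its other probe set as well. The remaining 129 numbered genes lay at or under the threshold. "Expressed" here means this threshold alone, since presence calls were not used.

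RNA came from undifferentiated mouse induced pluripotent stem cells (iPSCs) of 6 clones, each hybridised to 1 Affymetrix array. All clones descended from mouse embryonic fibroblasts carrying a Nanog-GFP reporter, infected with retroviruses for Oct3/4, Sox2, Klf4 and c-Myc and grown on feeder cells. The inhibitor mixture 3i, which blocks GSK3 (CHIR99021), MEK (PD184352) and the FGF receptor (SU5402), was present during maintenance of every clone. The 3 clones of the (-)/(+) group (clones 1, 2 and 3) were reprogrammed without it, and the 3 clones of the (+)/(+) group (clones 4, 5 and 6) had it in the reprogramming phase as well. Each clone is a single picked line, and p-values measure the spread between these clones. The comparison asks how the use of 3i during reprogramming, with 3i given to both groups afterwards, relates to the signals of these genes.

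Most proteins with numbered Zfp symbols carry C2H2 zinc fingers, short folds held by a zinc ion that read DNA a few bases at a time. Many also carry a KRAB domain, which recruits Trim28 (KAP1) and with it the histone methyltransferase Setdb1, so that retroelements and imprinted regions are kept silent in pluripotent cells. Such genes arose by tandem duplication and often lie side by side in clusters. The numbers in the symbols follow no function, and some members are of another kind, such as Zfp36, a CCCH protein that binds AU-rich mRNA.

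The promoters of 5 members that the results turn on are printed here from RefSeq (GRCm38.p6), from 250 bases before to 50 bases after the annotated start, 5′ to 3′ on the strand of the gene. Zfp560 is shown as the member with the widest gap between the groups, Zfp961, Zfp869 and Zfp958 as the called members on chromosome 8, and Zfp367 as a called member on another chromosome. Zfp958 has 3 windows in the table, which overlap, and the one with the lowest coordinates is printed. Zfp367 has 2, and the one further upstream is printed, chosen after its matches were seen, while the other held none of the motifs searched. Capitals mark matches, on either strand, to CCGGAAG (a core bound by ETS factors), CCAAT (the CCAAT box), TATAAA (the TATA box) or GCCATNTT (the core of a YY1 site).
Zfp560 chr9:20385109-20385408 (minus strand): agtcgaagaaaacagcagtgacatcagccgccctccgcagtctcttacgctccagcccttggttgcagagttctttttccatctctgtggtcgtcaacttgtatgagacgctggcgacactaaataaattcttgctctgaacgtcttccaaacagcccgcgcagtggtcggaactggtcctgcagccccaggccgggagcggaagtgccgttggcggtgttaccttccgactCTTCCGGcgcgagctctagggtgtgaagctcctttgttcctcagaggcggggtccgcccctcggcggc
Zfp961 chr8:71950816-71951115 (plus strand): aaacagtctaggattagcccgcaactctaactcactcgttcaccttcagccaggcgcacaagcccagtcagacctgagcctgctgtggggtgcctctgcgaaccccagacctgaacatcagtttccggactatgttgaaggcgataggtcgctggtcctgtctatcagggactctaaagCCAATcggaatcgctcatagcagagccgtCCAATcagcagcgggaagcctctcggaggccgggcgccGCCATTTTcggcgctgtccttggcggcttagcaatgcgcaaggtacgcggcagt
Zfp869 chr8:69716853-69717152 (minus strand): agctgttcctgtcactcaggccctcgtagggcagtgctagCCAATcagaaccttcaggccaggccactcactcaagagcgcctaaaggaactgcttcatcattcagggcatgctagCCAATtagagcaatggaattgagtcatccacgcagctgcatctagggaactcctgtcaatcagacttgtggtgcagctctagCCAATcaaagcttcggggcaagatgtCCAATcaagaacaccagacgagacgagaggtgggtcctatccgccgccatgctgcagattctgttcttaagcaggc
Zfp958 chr8:4612920-4613219 (plus strand): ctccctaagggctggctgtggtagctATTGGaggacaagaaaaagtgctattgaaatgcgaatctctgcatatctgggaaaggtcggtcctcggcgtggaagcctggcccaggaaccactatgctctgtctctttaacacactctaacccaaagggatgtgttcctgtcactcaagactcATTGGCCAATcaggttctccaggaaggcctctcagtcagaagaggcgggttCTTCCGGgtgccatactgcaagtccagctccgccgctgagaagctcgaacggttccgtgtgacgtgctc
Zfp367 chr13:64153150-64153449 (minus strand): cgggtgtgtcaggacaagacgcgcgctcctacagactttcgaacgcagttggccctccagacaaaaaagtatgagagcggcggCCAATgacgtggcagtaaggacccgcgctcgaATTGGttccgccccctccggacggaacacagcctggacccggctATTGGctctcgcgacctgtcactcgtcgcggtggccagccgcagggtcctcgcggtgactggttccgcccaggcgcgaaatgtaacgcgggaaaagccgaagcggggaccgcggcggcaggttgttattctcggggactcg
Zfp560 had 1 CCGGAAG match, on the opposite strand just before the annotated start. Zfp869 had 4 CCAAT matches, and Zfp958 had 3 together with 1 CCGGAAG match. Zfp961 held 2 CCAAT matches and 1 GCCATNTT match. None of the 5 windows held TATAAA, and no match shared a base with another.

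RefSeq promoters were found for 143 of the 173 members, 177 windows in all, some of which overlap because a gene can have several starts. CCGGAAG was present in 21.5% of member windows, against 11.6% of promoters of protein-coding genes and 8.86% of all promoters in the table. GCCATNTT was present in 15.3%, against 6.37% and 6.05%, and CCAAT in 48.6%, against 38.2% and 37.4%. TATAAA was rarer among member windows, 9.6%, against 12.6% and 13.6%. The median window of a member held 16 CpG dinucleotides, against 13 in protein-coding and 7 in all promoters. Among 14 windows of the 8 members called below, 6 held CCGGAAG, 8 held CCAAT, 2 held GCCATNTT and 0 held TATAAA. These windows are not independent. The 6 with CCGGAAG come from Zfp560, Zfp384 and Zfp958 alone. The overlapping windows of Zfp958 hold the same CCGGAAG match and share CCAAT matches. These are counts of letters and say nothing about binding.

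For most of the zinc finger genes the (-)/(+) and (+)/(+) clones gave similar signals, and the few called members were mostly higher in the (+)/(+) group. The median log2 fold change, (+)/(+) over (-)/(+), was -0.02 over the 173 members, with quartiles of -0.15 and 0.23. Over all 22518 tested probe sets the median was -0.05, and over 8510 named genes with a mean signal above 200 it was -0.04. Of the members, 83 had a positive and 90 a negative value. Beyond 1.5-fold in either direction lay 11 members, and beyond 2-fold lay 2, Zfp560 and Zfp961. Mean signals over the 6 clones ran from 201 to 7327 with a median of 523. The median standard deviation within groups was 0.18 on the log2 scale.

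In the limma fit over all tested probe sets, 7 members were called higher in (+)/(+) clones and 1 lower, at a Benjamini-Hochberg adjusted p under 0.05. This is 4.05% higher and 0.578% lower, beside 1.35% and 1.77% of all tested probe sets and 1.89% and 1.61% of the named genes above 200. In either direction 8 members passed (4.62%), beside 3.12% of all tested probe sets and 3.5% of the named genes. At an unadjusted p under 0.05 there were 39 members, 22.5%, against 21.2% and 22.7%. The 7 include Zfp560, which had been picked for its difference. Of 85 numbered Zfp genes under the threshold that were tested, limma called 0, and 7 (8.24%) had an unadjusted p under 0.05.

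The groups did not overlap in 47 members, 27.2%, beside 27.1% of all tested probe sets and 28.3% of the named genes. The (+)/(+) clones lay above in 28 (16.2%, beside 10.5% of all tested probe sets and 12.1% of the named genes above 200) and below in 19 (11%, beside 16.6% and 16.2%). The split of calls moved with the scaling of the arrays. It was 13 higher and 0 lower when every array was brought to a common median. This scaling shifts the median of all tested probe sets to 0.10, with 917 of them called higher and 238 lower. Without it, 305 of all tested probe sets were called higher and 398 lower. After quantile normalization the split was 6 higher and 0 lower for the members, and 287 and 255 for all tested probe sets.

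**Figure D1:**
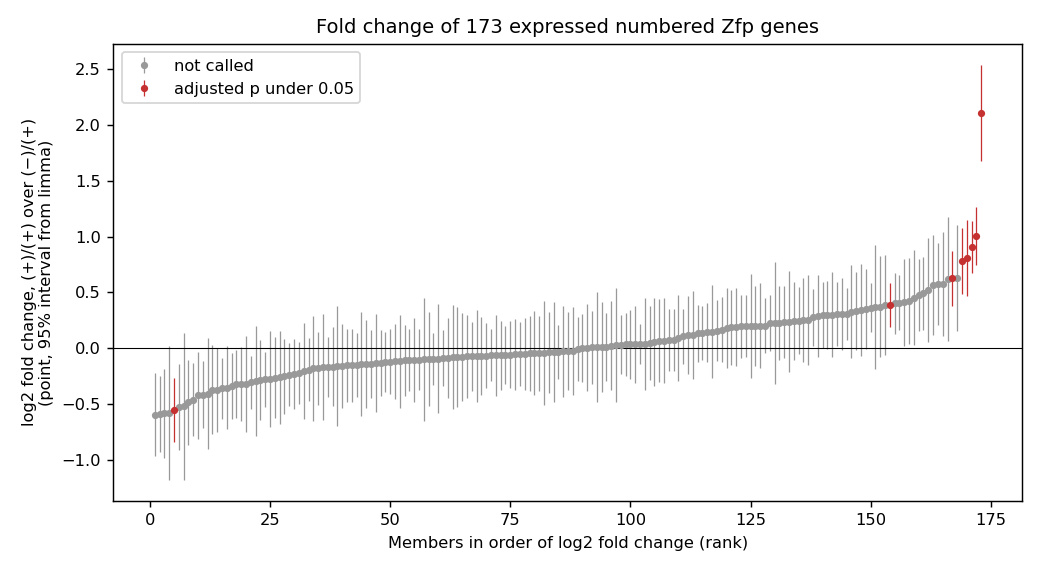
Log2 fold change of each of the 173 members, (+)/(+) over (-)/(+), in order of size, with 95% intervals from limma; red points passed the adjusted test. Most intervals span 0, and Zfp560 stands apart at 2.11.

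Zfp560 had a signal of 651 in clone 1, 378 in clone 2 and 637 in clone 3, against 2106, 2625 and 2444 in the (+)/(+) group. The lowest (+)/(+) clone was far above the highest (-)/(+) clone. The log2 fold change was 2.11, with a 95% interval of 1.68 to 2.54, and it placed the gene at rank 9 of 8510 named genes in order of rise. These values chose the gene and are given as a description. Its other probe set gave 73.5, 112 and 69.3 against 76.8, 130 and 80.5, with groups that overlap and a log2 fold change of 0.14 (SE 0.25).

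Zfp560 belongs to a run of 5 numbered Zfp genes on chromosome 9, of which Zfp266 and Zfp846 are also members. Zfp266 gave 1121, 1558 and 1238 against 1284, 1229 and 1216, a log2 fold change of -0.06. Zfp846 gave 165, 279 and 287 against 232, 185 and 212, a log2 fold change of -0.17. In both genes the groups overlapped on these probe sets, and neither passed the test (adjusted p = 0.84 and 0.68 in limma). In the run, Zfp560 stands at place 1 and these genes at places 4 and 5, so they are not next to it. A dimmer probe set of Zfp266 gave 293, 249 and 318 against 321, 336 and 369. Its groups were just apart, with a log2 fold change of 0.25 (adjusted p = 0.38 in limma). Over the 4 tested probe sets of Zfp266 the values ran from -0.19 to 0.25.

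**Figure D2:**
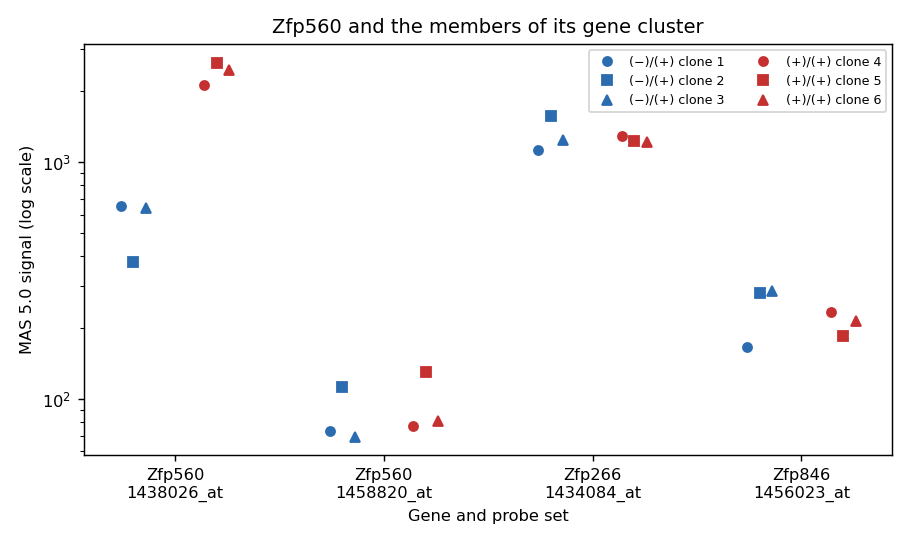
MAS 5.0 signal (log scale) in each clone for both probe sets of Zfp560 and for Zfp266 and Zfp846, the members of its cluster; blue, (-)/(+), red, (+)/(+). The groups are apart for the first Zfp560 probe set (378 to 651 against 2106 to 2625) and overlap in the other probe sets shown.

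The member next in size was Zfp961, on chromosome 8. It read 728, 636 and 687 without and 1436, 1295 and 1444 with 3i in the reprogramming phase. The (+)/(+) clones lay close together and clear of the others. Zfp961 rose by 1.01 on the log2 scale (SE 0.12, 95% interval 0.75 to 1.27), with an adjusted p of 0.0043 in limma.

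Zfp367, which has been described as a transcription activator in erythroid cells, gave 1858, 2024 and 1702 against 3555, 3272 and 3666. Again no clone of one group came near the other. It rose by 0.91 (SE 0.11, adjusted p = 0.0043 in limma). Its other tested probe set gave 175, 167 and 161 against 249, 270 and 255, a log2 fold change of 0.58 that did not pass (adjusted p = 0.066) though its groups were apart as well. Zfp961 and Zfp367 passed whichever single clone was left out. Zfp869, Zfp958 and Zfp619 passed without clone 1 or clone 2 and not without clone 3, 4, 5 or 6.

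Zfp619, on chromosome 7, stood near the signal threshold, at 176, 225 and 225 against 377, 395 and 354. It rose by 0.81 (SE 0.16, adjusted p = 0.027 in limma). Zfp207 encodes BuGZ, a Bub3-binding protein of kinetochores and the spindle, and lies on chromosome 11. It gave 6417, 5942 and 6673 against 8634, 7713 and 8586. The groups were apart, and it rose by 0.39 (SE 0.09, adjusted p = 0.047).

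Zfp207 has 5 other tested probe sets, and they did not follow the first. All were much dimmer, with mean signals of 145 to 526 against 7327. Their log2 fold changes ran from -0.40 to 0.13, and none passed the test. In the mean over all its probe sets, where the dim ones count as much as the bright one, the value was -0.13 (adjusted p = 0.66 in limma). The direction for this gene thus differs between the bright probe set and most of the dimmer ones.

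The 1 member that fell was Zfp384, which encodes NMP4 (CIZ), a nuclear matrix protein that binds AT-rich DNA. The (-)/(+) clones read 1242, 1036 and 981, and the (+)/(+) clones 736, 774 and 685. All (+)/(+) clones were lower, with a change of -0.55 (SE 0.13, adjusted p = 0.049 in limma). The calls of Zfp384 and of Zfp207 were lost whichever clone was left out.

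**Figure D3:**
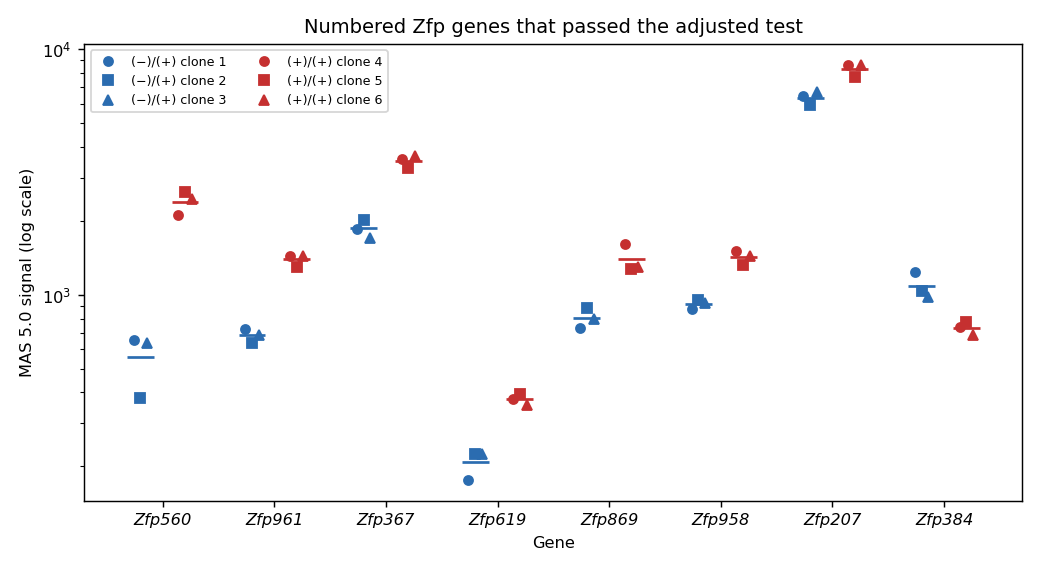
MAS 5.0 signal (log scale) in each clone for the 8 members that passed the adjusted test; points are clones, horizontal lines the group means. The groups do not overlap in any of the 8, and Zfp384 is the gene with lower (+)/(+) signals.

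Behind these came members with wide differences that did not pass. Zfp959 gave 168, 168 and 288 against 331, 358 and 276, a log2 fold change of 0.63 (adjusted p = 0.13 in limma). In Zfp931 the clones varied within groups, at 1364, 2185 and 1261 against 1639, 2640 and 3195, and the value of 0.62 did not pass (adjusted p = 0.19). In both genes a clone of one group lay within the range of the other.

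On the lower side, Zfp692, which encodes AREBP, a repressor of gluconeogenic genes, had the largest negative value. It gave 721, 596 and 522 against 398, 464 and 337, a log2 fold change of -0.60 (adjusted p = 0.079). Zfp473, whose human counterpart binds the U7 particle that processes histone mRNA, gave 619, 672 and 590 against 487, 414 and 343, a value of -0.59 (adjusted p = 0.065). Their groups did not overlap, yet neither passed.

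Zfp532 and Zfp592 encode chromatin proteins found together in a complex with Zmynd8. Zfp532 gave 606, 969 and 746 against 582, 467 and 462 (-0.59, adjusted p = 0.10), and Zfp592 gave 227, 271 and 247 against 204, 147 and 171 (-0.49, adjusted p = 0.14). In both the (+)/(+) clones lay below the others without a call. Zfp428 had a value of -0.52 (adjusted p = 0.12).

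Zfp934 and Zfp46 were among the members that varied most within a group. Zfp934 gave 2588 in clone 1 but 1019 and 1420 in clones 2 and 3, against 939, 973 and 1209 in (+)/(+) clones. Its value of -0.58 did not pass (adjusted p = 0.25), while a dimmer probe set of the gene, at 461, 429 and 330 against 260, 203 and 246, was called lower (-0.74, adjusted p = 0.049). Zfp46 gave 190, 392 and 296 against 122, 211 and 267, with overlap between the groups.

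On a list of 7 genes with a known part in silencing retroelements or in imprinting, 6 were members. On the chosen probe sets limma called 0 of them, beside 3.12% of all tested probe sets. Only 1 (Zfp708) had an unadjusted p under 0.05. Zfp445, which guards imprints, gave 3031, 4073 and 3956 against 3330, 3206 and 3227. Zfp568, a repressor of placental Igf2 transcripts, gave 2485, 2583 and 3109 against 2974, 2857 and 2925. In both genes the ranges of the groups overlapped on these probe sets. A dimmer probe set of Zfp568 was called higher (0.70, adjusted p = 0.041 in limma), with values given further below.

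Zfp809 silences proviruses with a proline primer binding site, and gave 840, 538 and 644 against 658, 824 and 924. Zfp932 and Zfp819 act on endogenous retroviruses, with log2 fold changes of -0.18 and 0.07. Zfp708, which targets the repeat RMER19B, gave 169, 182 and 244 against 248, 287 and 270, so that the groups were just apart (0.42, adjusted p = 0.20). Zfp57, the best known imprint guardian of the family, was at 147 to 217 over the 6 clones and so fell below the threshold.

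Of 15 members listed as DNA-binding regulators of transcription, 0 were called higher and 1 lower, Zfp384. Of all tested probe sets, 1.35% were called higher and 1.77% lower, and a list this short cannot be told apart from that share. The closest to a call on the upper side was Zfp131, a BTB zinc finger protein, with 1874, 1838 and 1793 against 2478, 2337 and 2279. Its groups were apart and the value was 0.36 (adjusted p = 0.073). Zfp462, which restrains differentiation in pluripotent cells, gave 2086, 2290 and 2465 against 1919, 1851 and 1744 (-0.31, adjusted p = 0.14). Zfp296, a partner of Klf4, gave 952, 1017 and 1130 against 1096, 1263 and 1102, with overlapping groups.

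None of the other regulators on the list passed either. Zfp217, a partner of the demethylase LSD1, had a log2 fold change of -0.06, Zfp292 had -0.09, Zfp318 had -0.07, Zfp148 had 0.18 and Zfp644 had 0.23. For the 15 genes the log2 fold changes ran from -0.55 to 0.36 with a median of -0.07.

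Among 11 members listed for proteins that act on RNA or other proteins, 1 was called higher (Zfp207) and 0 lower. Of all tested probe sets, 1.35% were called higher and 1.77% lower. Zfp622, a factor of ribosome maturation, gave 7241, 6738 and 7311 against 7459, 7253 and 7124, so that its clones differed little. Zfp598, the ubiquitin ligase that senses collided ribosomes, gave 1134, 1219 and 1154 against 907, 999 and 978 (-0.28, adjusted p = 0.19). Zfp36, the mRNA decay factor tristetraprolin, gave 173, 159 and 186 against 288, 206 and 217 (0.41, adjusted p = 0.21).

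In Zfp598 and Zfp36 the groups were apart in opposite directions without a call. Zfp638, a splicing factor, gave 2374, 1560 and 2796 against 2658, 2490 and 3108, and Zfp106, an RNA-binding protein of motor neurons, gave 4902, 5466 and 4806 against 4196, 5061 and 4953. In these the groups overlapped.

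The partners through which KRAB zinc finger proteins act were measured by 19 genes of a list of 21 names. All 19 were tested, and limma called 0, beside 3.12% of all tested probe sets. An unadjusted p under 0.05 was found in 7, a threshold that 21.2% of all tested probe sets passed. The median log2 fold change of the 19 was -0.05. The largest was that of Cbx3, 0.56 (adjusted p = 0.22 in limma). Cbx3 was the 1 gene of the list under 200 in every clone, at 62 to 163. Chd3 was dim as well, with a mean of 153 over the 6 clones. Trim28, the scaffold of the complex, had a mean of 13065 in (-)/(+) and 12074 in (+)/(+) clones (log2 fold change -0.11, adjusted p = 0.44). Setdb1 had means of 1022 and 941 (-0.12, adjusted p = 0.57). Hdac1 had 0.05, Hdac2 had 0.22 and Morc3 had 0.20. In Hdac2 and Morc3 the (+)/(+) clones all lay above the others, without a call. They all lay below in Setdb1, Atf7ip (-0.45, adjusted p = 0.085 in limma) and Morc2a (-0.30), also without a call. Of all tested probe sets, 10.5% lay fully above and 16.6% fully below.

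The members on chromosome 8 had the most calls of any chromosome. Of 9 members on chromosome 8, 8 had positive log2 fold changes and 3 were called higher (Zfp961, Zfp869 and Zfp958), with a median of 0.37. Among 454 other named genes above 200 on this chromosome, 14 were called in either direction and the median was 0.10. Clone 4 stood apart there. Its median shift from the middle of the 6 clones was 0.55 (log2) for the 9 members and 0.38 for the 454 other genes, and for those genes the other 5 clones lay between -0.06 and -0.01. The part of this shift in the results was not tested.

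Zfp869 gave 731, 883 and 799 against 1614, 1274 and 1302, with the highest value in clone 4. It rose by 0.78 (SE 0.13, adjusted p = 0.018 in limma). Zfp958 gave 873, 950 and 924 against 1500, 1323 and 1442, and rose by 0.62 (SE 0.11, adjusted p = 0.021). In both, clones 5 and 6 also lay above every (-)/(+) clone.

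Without clone 4, Zfp961 kept a log2 fold change of 0.99 (adjusted p = 0.0187 in limma), Zfp869 had 0.67 (adjusted p = 0.0558) and Zfp958 had 0.59 (adjusted p = 0.0644). Zfp866 gave 250, 292 and 351 against 443, 262 and 235, so that its value of 0.03 became -0.24 without clone 4. Zfp868 gave 307, 422 and 474 against 773, 534 and 504 (0.57, adjusted p = 0.14) and had 0.38 without it.

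Clone 4 was the highest of the 6 clones in 7 of the 9 members. The exceptions were Zfp961, highest in clone 6, and Zfp617, highest in clone 2, at 1538, 2578 and 1966 against 2100, 1964 and 1474. Without clone 4 the median of the 9 was 0.25, and 7 of 9 stayed positive. Without chromosome 8, the other 164 members had 4 calls higher and 1 lower and a median of -0.03.

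**Figure D4:**
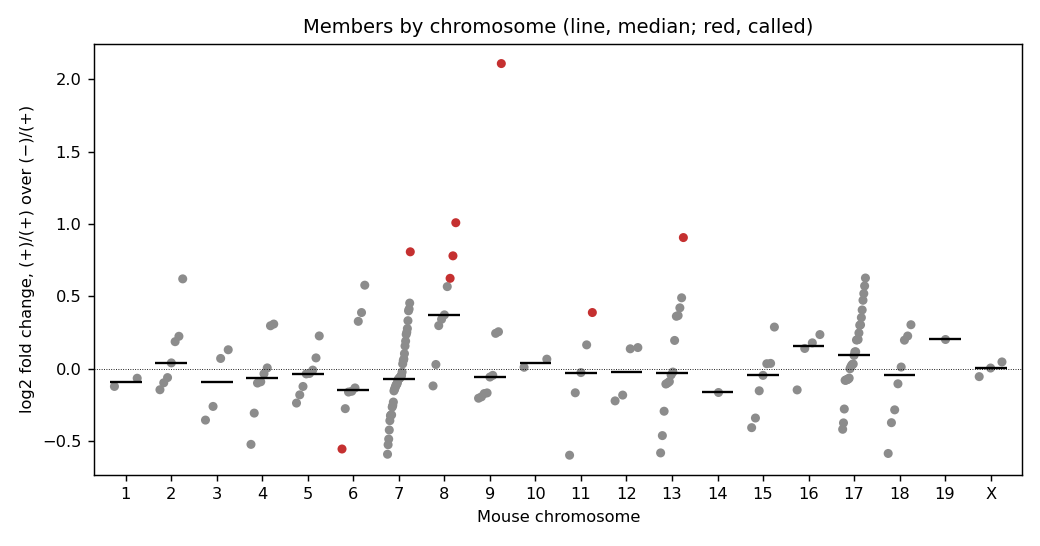
Log2 fold change of the members by mouse chromosome; each point is a gene, red points passed the adjusted test and lines are medians. Chromosome 8 has a median of 0.37, while chromosome 7, with 40 members, has -0.07 and chromosome 17, with 29, has 0.09.

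Chromosome 11 is raised in clone 1, by 0.27 over 694 other named genes, and it holds 5 members, among them Zfp207 and Zfp692. Their median shift in clone 1 was 0.12. In Zfp692 clone 1 was the highest of the 6 at 721, and in Zfp207 it was the middle one of its group. Without clone 1, Zfp532 and Zfp369 passed as lower. Without clones 1 and 4 together, 6 members were called higher and 2 lower, and 5 of these 8 were among those called with all clones.

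Clone 1 was also the low clone for many members on other chromosomes. It gave the lowest of the 6 signals in 62 members, 35.8%, while it was lowest in 17.5% of the named genes above 200. The median shift of the members was -0.12 in clone 1 and between -0.03 and 0.04 in the other clones, while all tested probe sets had 0.02 in clone 1. The median log2 fold change of the members was -0.06 without clone 1 and 0.06 without clone 2.

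Of the members, 79 lay in a cluster, taken as at least 5 numbered Zfp genes with neighbouring starts less than 500000 bases apart, and 94 lay outside. Calls were 2 higher and 0 lower within clusters and 5 higher and 1 lower outside. The (+)/(+) clones lay fully above in 17 and fully below in 4 clustered members, and above in 11 and below in 15 of the others. Over all tested probe sets, 1.35% were called higher and 1.77% lower, and 10.5% lay fully above and 16.6% fully below. The split between clustered and other members was not tested.

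The cluster with most members, from Zfp160 to Zfp13 on chromosome 17, held 17. Of these 13 had positive values, 0 were called, and the median was 0.12. The median shift was -0.27 in clone 1 and 0.23 in clone 6, so that the clones differed within both groups. Zfp820 gave 288, 424 and 411 against 524, 589 and 559 (0.57, adjusted p = 0.086) and Zfp51 gave 488, 659 and 555 against 707, 828 and 835 (0.47, adjusted p = 0.10). Both had groups apart, and both were called when arrays were scaled to a common median.

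In the cluster of 6 genes from Zfp930 to Zfp866 on chromosome 8, 4 members had a median of 0.45 and a shift of 0.62 in clone 4. In the cluster from Zfp978 to Zfp933 on chromosome 4, Zfp982 gave 5230, 6737 and 7505 against 8497, 7094 and 8148 (0.30, adjusted p = 0.23). Zfp979 gave 4060, 4411 and 5014 against 5823, 5135 and 5721 (0.31, adjusted p = 0.13), and Zfp991 gave 3532, 7902 and 5702 against 3954, 5591 and 5861 (-0.10). Clone 1 was the lowest clone in all of these, with a median shift of -0.48. Over the tested probe sets the values ran from -0.20 to 0.30 for Zfp982 and from -0.10 to 0.26 for Zfp991. The sign thus differed between probe sets in both genes.

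**Figure D5:**
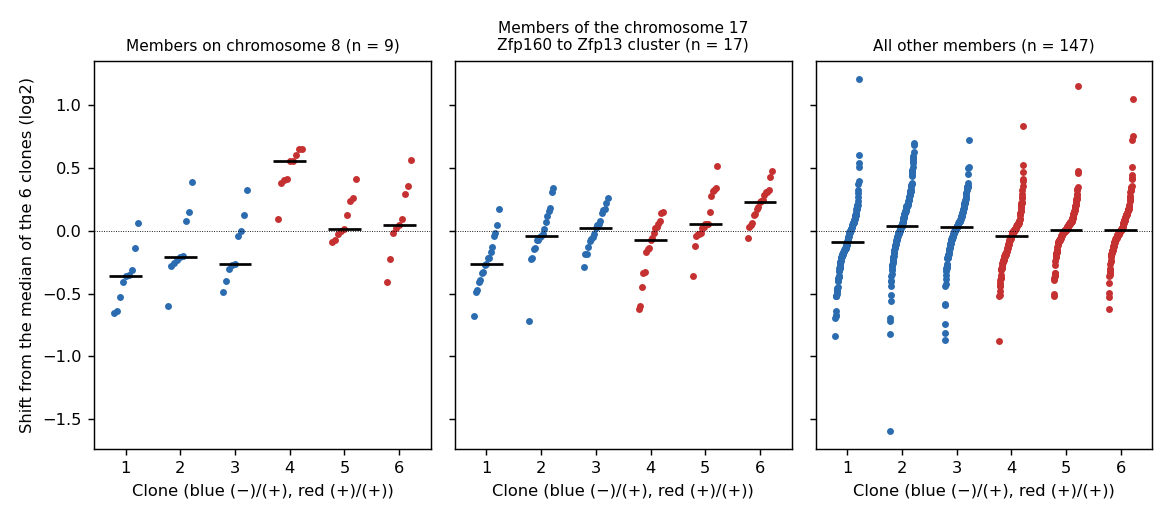
Shift of each member from the median of the 6 clones (log2 of signal + 16), by clone, for the 9 members on chromosome 8, the 17 of the chromosome 17 cluster and the other 147; lines are medians. Clone 4 stands at 0.55 on chromosome 8, and clone 1 at -0.27 and clone 6 at 0.23 in the cluster.

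Where a member had several probe sets, their fold changes differed widely in a minority of genes. Of 92 members with more than 1, 75 had at least 2 that were tested. The fold changes of a gene's probe sets lay less than 0.5 apart on the log2 scale in 64 of the 75 and further apart in 11. Zfp560 had the widest gap, 1.97, followed by Zfp770 with 1.01 and Zfp644 with 0.98. Of 119 other tested probe sets, 79 had the sign of the one used. Called were 4, in Zfp770, Zfp800, Zfp934 and Zfp568, beside 3.12% of all tested probe sets.

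The chosen probe set of Zfp770 gave 1283, 1502 and 1528 against 1665, 1643 and 1724 (0.22, adjusted p = 0.28), and the other gave 63.0, 46.4 and 81.6 against 140, 194 and 175 (1.23, adjusted p = 0.022). Both had the (+)/(+) clones on top. In Zfp568 the other probe set, at 437, 356 and 415 against 774, 668 and 566, was called (0.70, adjusted p = 0.041), while the chosen one was not (0.10).

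Precision is limited by the 3 arrays of each group. Just inside the threshold lay Zfp952, Zfp438 and Zfp397, with mean signals of 201, 202 and 205, and just outside lay Zfp87, Zfp182 and Zfp628, with 190, 193 and 193. Both group means were above 200 in 161 members, including all 8 that were called. Only the (+)/(+) mean was above it in 5 (Zfp677, Zfp708, Zfp36, Zfp438 and Zfp952). Only the (-)/(+) mean was above it in 7 (Zfp810, Zfp446, Zfp397, Zfp61, Zfp41, Zfp592 and Zfp46). These members passed the threshold through the group in which they are higher.

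Pluripotency markers were well measured in all clones, with a summed signal of 109630 to 116515 in (-)/(+) and 122922 to 131028 in (+)/(+) clones over 9 genes. Of these, 1 was called higher, Fbxo15 (0.64, adjusted p = 0.014 in limma), beside 1.35% of all tested probe sets. The values of the 9 ran from -0.43 (Tfcp2l1) to 0.64, and 6 were positive. The 19 fibroblast markers with a probe set summed to 18691 to 26220 in (-)/(+) and 11436 to 13324 in (+)/(+) clones. Much of each sum is Vim, at 10442, 15054 and 13196 against 6400, 7681 and 6957. Of 16 tested, 6 were called lower, beside 1.77% of all tested probe sets, and 1 (Postn) had a positive value. In every clone 6 of the 19 were under 200. Feeder cells and the cells of origin are fibroblasts, and the part of this difference in the values of the zinc finger genes was not tested. In such bulk RNA, fewer cells of a kind and less RNA per cell cannot be told apart.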

How the data were processed

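Biotin-labelled RNA of 6 iPSC clones was read on Affymetrix mouse expression arrays of 1 colour, and the authors deposited MAS 5.0 signal intensities, 1 linear value per probe set. The mean without the top and bottom 2% was 500 on each array, which shows that arrays had been scaled to a common level. The 64 control probe sets of the 45101 in the table were dropped. Gene names came from the platform annotation, and 34945 probe sets had 1 symbol, 932 several and 9160 none.

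Values were taken as log2(signal + 16). Fold changes on this scale understate the change of low signals. The 22518 probe sets whose mean log2 value exceeded the median over the array were compared between groups with limma 3.58.1 in R 4.3.3 (lmFit, eBayes with trend, group alone), with Benjamini-Hochberg adjustment over all of them. On simulated data for this comparison (200 of 22518 probe sets changed) the test recovered 3% of 1.5-fold, 50.5% of 2-fold and 89.5% of 3-fold changes, with 14.3%, 0% and 3.24% of calls false. Shifts of a clone are from the median of the 6 clones. Tables were made with Python 3.11.15 and pandas 2.3.3, figures with matplotlib 3.10.9.

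The members, gene lists and clusters were chosen with earlier results of these data known. Named are Zfp560, the called members, the 8 largest rises and falls, the 8 with the highest signals, members of the role lists, those nearest the threshold, those on chromosomes 8 and 11 with the largest shifts and those whose probe sets differ most. Zfp820, Zfp51, Zfp369, Zfp617, Zfp800, Zfp266, Zfp846 and Setdb1 were named after their values were seen. Alternatives were quantile or common-median scaling, pseudocounts of 1 and 64, other filters and thresholds, arrayWeights, eBayes without trend, averaging all probe sets of a gene, the methods' t-test with Benjamini-Hochberg adjustment, and leaving out each clone. Leaving out clones 1 and 4 together was added after seeing the data. Chromosomes came from RefSeq (GRCm38.p6). Protein sequences were not used here.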

Additional observations from a re-analysis of the deposited data

How the results depend on the processing

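With 7 members called higher and 1 lower in the reported setting, the counts were 6 and 0 after quantile normalization, 13 and 0 with a common median, 7 and 0 with a pseudocount of 1, 4 and 0 with eBayes without trend, 5 and 0 without a filter, 15 and 9 with arrayWeights, 7 and 0 with the mean of all probe sets, and 6 and 2 without clones 1 and 4. The methods' t-test gave 0 and 0 after adjustment and 29 members at an unadjusted p under 0.05. Leaving out 1 clone gave 3 to 6 members higher and 0 to 2 lower, and 3 members higher and 0 lower without clone 3, 4, 5 or 6. The calls over all tested probe sets moved as well. They were 305 higher and 398 lower in the reported setting, 1015 and 1512 with arrayWeights, and 87 and 178 with eBayes without trend. The methods' t-test called 0 higher and 1 lower of all tested probe sets. With 1 clone left out, 27 to 446 of all tested probe sets were called higher and 25 to 515 lower. The median log2 fold change of the members, -0.02, was 0.057 after quantile normalization and 0.127 with a common median, and between -0.063 and 0.0611 without 1 clone. A signal threshold of 500 left 95 members. The shift of the chromosome 11 members in clone 1 was -0.0166 with a common median. Zfp207 had -0.13 in the mean of all probe sets. The causes were not tested. In 38 of the 61 named members the 95% interval of the fold change spans 0, no direction is claimed, and the sign changed in 49 of 635 refits.

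No paired analysis was possible because the groups share no clone numbers. Counts by KRAB box in the protein were not run. Arrays have no sequencing depth. The standard deviation of members within groups ran from 0.04 to 0.52 on the log2 scale, and its relation to the signal was not tested.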
